A study of Homo sapiens with 8 samples.

Results

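TFIIH is the general transcription factor that opens promoter DNA for RNA polymerase II and the damaged strand in nucleotide excision repair. The genes described here are 10 in number, out of 57996 gene symbols in the RNA-seq count files: ERCC3, ERCC2, GTF2H1, GTF2H2, GTF2H2C, GTF2H3, GTF2H4, GTF2H5, CDK7 and MNAT1. They were taken by name. GTF2H2 was chosen by its measured counts, which were near 0 in the knockout libraries, so its values are given as a description without a test. The others were taken as subunits of the same complex or, for GTF2H2C, as a near copy. Of the 10 genes, 9 had enough counts to enter the fit across all genes, and GTF2H4 did not.

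The complex has a core and a kinase module. In the core, ERCC3 (the XPB protein) is a DNA translocase and ERCC2 (XPD) a helicase, and GTF2H1, GTF2H2, GTF2H3, GTF2H4 and GTF2H5 encode smaller proteins that hold them together or regulate them. The GTF2H2 protein contacts XPD and stimulates its helicase. The kinase module, known as CAK, joins CDK7 to cyclin H and to the assembly factor MNAT1, and it phosphorylates the tail of RNA polymerase II as well as the kinases of the cell cycle.

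The cells were HAP1, a near-haploid human line derived from chronic myelogenous leukaemia. The BCDIN3D knockout group was a single line, labelled as clone 11, with 2 libraries, and the wild-type group had 2 libraries of unmodified HAP1 cells. BCDIN3D encodes a methyltransferase of RNA 5′ ends. How the knockout was made is not given in the sources used here, and with 1 clone the lost gene and differences between clones cannot be told apart. All cells were grown for 48 h in medium with 10% serum, and the total RNA had an integrity number of 10. In both groups, replicate 1 carries the label date of 6 May and replicate 2 that of 9 May. The series calls them biological replicates, but nothing states that the cultures were independent, so a p-value here reflects the scatter of 2 libraries a group, part of which may be technical.

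Library totals lay between 20065041 and 24415272 counts. The targeted gene BCDIN3D had 33 and 54 counts in the knockout libraries and 154 and 121 in the wild-type libraries, a log2 fold change of -1.52 ± 0.24 (SE). Its span overlaps BCDIN3D-AS1, with 87 counts over the 4 libraries. Of 6 blood cell markers, PTPRC, CD34, SPI1 and GATA1 had at most 5 counts in any library, while BCR and ABL1, the genes fused in the leukaemia of origin, were well counted. The 6 blood markers summed to between 61.0 and 61.2 CPM in knockout and 56.6 to 61.5 CPM in wild-type. Most of this sum was TAL1, with means of 59.9 CPM in knockout and 47.8 CPM in wild-type. KIT had means of 1.11 CPM in knockout and 10.9 CPM in wild-type. The 7 fibroblast markers, with DCN and LUM at 0 counts, summed to between 69.5 and 80.3 CPM in knockout and 68.9 to 83.0 CPM in wild-type. PDGFRA made up most of that sum, with means of 66.7 CPM in knockout and 66.8 CPM in wild-type. The 6 epithelial markers summed to between 50.6 and 58.4 CPM in knockout and 69.3 to 78.2 CPM in wild-type, and EPCAM, KRT8 and KRT18, the 3 tested, were all lower in knockout by edgeR. Of the blood markers, TAL1 was higher (0.32 ± 0.08) and KIT lower (-3.30 ± 0.23) on the log2 scale. DESeq2 called KRT8 alone of the 3 epithelial genes, leaving out single libraries left 1 or 2 of them called, and TAL1 lost its call without wild-type replicate 1 (adjusted p = 0.237 by edgeR). The part of these shifts in the results below was not tested. CPM are counts scaled to a common library size after TMM normalisation, and they are compared between libraries but not between genes, since exon lengths were not used.

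GTF2H2 (chromosome 5, 71035347 to 71067676, GRCh38) was counted in both wild-type libraries and almost lost in the knockout clone. It had 1 count and 0 counts in the knockout libraries, against 109 and 114 counts in the wild-type libraries. These counts correspond to 0.0473 and 0 CPM in knockout and to 5.24 and 4.62 CPM in wild-type. The groups did not overlap, and both label dates showed the same picture. By the summed counts GTF2H2 was 201-fold lower in knockout, with an exact 95% interval of 35.7-fold to 7979-fold. The interval covers counting error only, because counts were pooled within each group and variation between replicates was left out. No molecular identifiers were used. Without knockout replicate 2 GTF2H2 was 104-fold lower. In bulk RNA, fewer expressing cells and less RNA per cell cannot be told apart. Of 12482 tested genes with at least 100 counts over the wild-type libraries, 10 had at most 1 count over the knockout libraries, and GTF2H2 was among them. GTF2H2 was chosen by these counts, so its place among the 10 and the gap between the groups are a description.

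**Figure D1:**
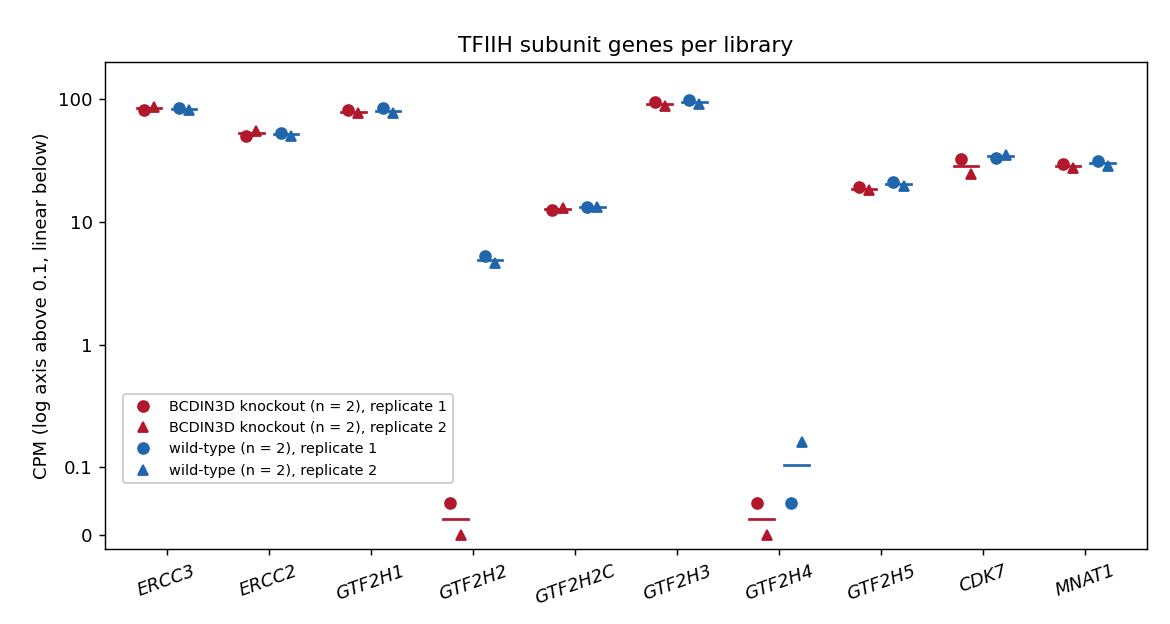
CPM of the 10 genes (x axis) in each library, with knockout in red left of wild-type in blue and circles and triangles for replicates 1 and 2. Bars are group means (n = 2). The y axis is logarithmic above 0.1 CPM and linear below. GTF2H2 is near 0 in the knockout libraries alone, GTF2H4 is near 0 in all 4, and the other genes have similar levels in both groups.

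The copy GTF2H2C (69560191 to 69595221 on the same chromosome) lies in the other arm of a duplicated stretch of 5q13, a part of the genome in which copy number varies between people. Its protein is closely related to that of GTF2H2. The reference sequences around the start sites show how alike the copies are there. Most of each window lies before the start, and exon sequences were not compared. How far reads can be assigned to one copy or the other was therefore not tested. In the RefSeq windows from 250 bases before to 50 bases after each start, 268 of 270 aligned bases were identical (99.3%). Windows are given 5′ to 3′ on the gene's strand, with capitals at the bases that differ between the copies. GTF2H2 is on the minus strand at chr5:71067627-71067926 and GTF2H2C on the plus strand at chr5:69559941-69560240 (GRCh38.p14).
GTF2H2: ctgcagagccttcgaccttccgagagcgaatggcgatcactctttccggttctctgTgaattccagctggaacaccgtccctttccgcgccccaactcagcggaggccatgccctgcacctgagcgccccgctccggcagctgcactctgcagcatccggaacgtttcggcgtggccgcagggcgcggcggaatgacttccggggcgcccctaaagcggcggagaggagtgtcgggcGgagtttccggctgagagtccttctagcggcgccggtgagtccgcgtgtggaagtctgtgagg
GTF2H2C: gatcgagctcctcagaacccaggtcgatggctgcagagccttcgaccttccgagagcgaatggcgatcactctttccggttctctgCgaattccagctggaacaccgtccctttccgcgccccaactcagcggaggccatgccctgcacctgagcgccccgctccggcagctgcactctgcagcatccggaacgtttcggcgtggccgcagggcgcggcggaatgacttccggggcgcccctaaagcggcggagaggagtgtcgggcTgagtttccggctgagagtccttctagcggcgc
Written with the GTF2H2 base first and counted from 1 at the 5′ end of its window, the differences were T57C and G238T. The GTF2H2C window begins 30 bases further upstream relative to the shared sequence. Both windows hold the ETS-type motif CCGGAAGT on the reverse strand, as ACTTCCGG. Searched on both strands, that motif was present in the windows of 5 of the 10 genes (GTF2H1, GTF2H2, GTF2H2C, GTF2H3 and ERCC3), against 4.14% of 35116 windows of all genes, and the pair GTF2H2 and GTF2H2C shares its match by common sequence. The letters TATAAA, on either strand, were in the windows of 0 of the 10 genes and in 11.5% of all windows. No TATAAA match therefore overlaps an ETS-type match in these windows. The matches describe the reference and are not evidence of binding.

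Counts assigned to GTF2H2C stayed close to wild-type. GTF2H2C had 266 and 258 counts in the knockout libraries and 274 and 330 in the wild-type libraries, or 12.8 ± 0.277 CPM in knockout and 13.3 ± 0.138 CPM in wild-type (SD, n = 2). The knockout values lay just below the wild-type values without overlap. The log2 fold change was -0.06 ± 0.13 (SE, 95% interval -0.32 to 0.21), with an adjusted p of 0.911 by edgeR's quasi-likelihood test. The interval thus holds changes in either direction. The pseudogene copy GTF2H2B (70415370 to 70450362) had 0 and 2 counts in knockout and 7 and 11 counts in wild-type, 8.12-fold lower by summed counts (exact 95% interval 1.94-fold to 72.1-fold, counting error only, while replicates vary by more than that). It fell under the filter on low counts. In a fit without that filter GTF2H2B missed the threshold (adjusted p = 0.136 by edgeR's quasi-likelihood test).

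Among reads assigned to GTF2H2 or GTF2H2C, nearly all went to GTF2H2C in the knockout clone. The GTF2H2C share was 99.6% (exact 95% interval 97.9% to 99.99%) and 100% (98.6% to 100%) in the knockout libraries, against 71.5% (66.7% to 76.0%) and 74.3% (70.0% to 78.3%) in the wild-type libraries. The shares contain the GTF2H2 counts that chose the gene, so they are a description, and their intervals cover counting error only. How the counting treated reads that match both copies is not given in the sources used here. Summed over GTF2H2, GTF2H2C and GTF2H2B, the copies stood at 12.8 ± 0.314 CPM in knockout and 18.6 ± 0.225 CPM in wild-type (SD, n = 2). The log2 fold change of the sum was -0.53 ± 0.12 (SE), described without a test because it contains GTF2H2.

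**Figure D2:**
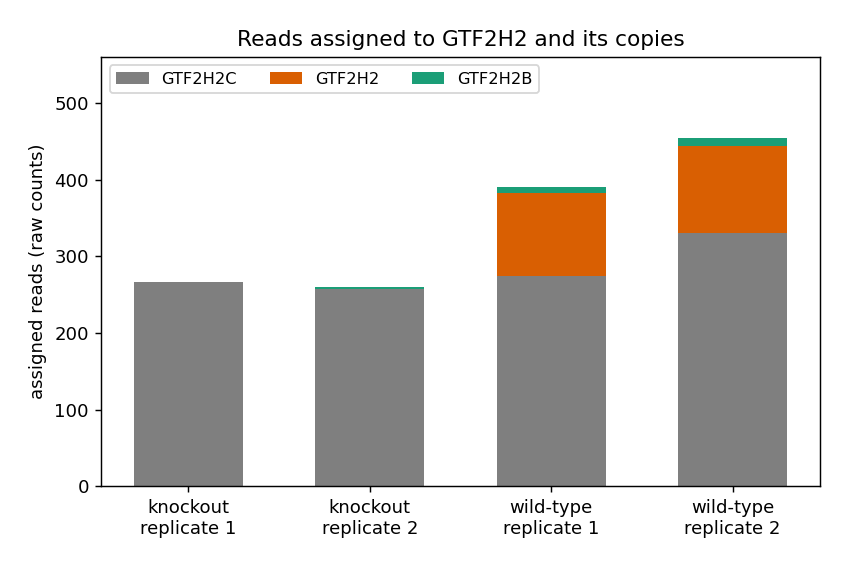
Raw counts (y axis) assigned to GTF2H2C (grey), GTF2H2 (orange) and GTF2H2B (green) in each library, stacked, without scaling for depth. The orange segment of 109 and 114 counts in the wild-type libraries is absent from knockout replicate 2 and is a single count in knockout replicate 1, while the grey segment is present in all 4 libraries.

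Of the 8 other tested TFIIH genes, 0 passed an adjusted p of 0.05 by edgeR's quasi-likelihood test, against 6.56% of the 16233 genes tested (3.06% higher and 3.50% lower in knockout). DESeq2 also called 0 of them, and edgeR without knockout replicate 1 called 1, CDK7. At an unadjusted p of 0.05, which 2711 of the 16233 genes tested passed, there was 1, CDK7. Their median log2 fold change was -0.06, beside 0.0017 for all tested genes. Of the 8, 6 were below 0, as were 8057 of the 16233 genes tested. The groups did not overlap in 3 of the 8, GTF2H2C, GTF2H5 and CDK7, all lower in knockout, where 21.8% of all tested genes had such a gap with knockout lower and 45.3% had one in either direction.

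The ATPase genes of the core were close to wild-type. ERCC3 (chromosome 2, 127257290 to 127294144) measured 82.6 and 86.5 CPM in knockout, with 85.4 and 81.9 CPM in wild-type. The groups overlapped, and the log2 fold change was 0.02 ± 0.07 (SE, 95% interval -0.13 to 0.16). ERCC2 (chromosome 19, 45349837 to 45370573) had 50.5 and 55.5 CPM in knockout and 52.9 and 50.7 CPM in wild-type. Here too the groups overlapped, with a log2 fold change of 0.03 ± 0.08 (interval -0.13 to 0.20). The annotated spans of ERCC2 and KLC3 overlap by 1683 bases, and how reads there were assigned is not known. For both helicase genes the sign of the difference changed between the label dates: it was below 0 in replicate 1 and above 0 in replicate 2.

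The core subunit genes GTF2H1 and GTF2H3 were also close to wild-type, with intervals that hold changes in either direction. GTF2H1 (chromosome 11, 18322567 to 18367045) encodes a scaffold that also contacts activators and repair factors, and it had 81.9 and 76.9 CPM in knockout and 85.3 and 76.9 CPM in wild-type. GTF2H3 (chromosome 12, 123633829 to 123662604) encodes the partner that binds the GTF2H2 protein, and it had 94.7 and 88.3 CPM in knockout and 99.0 and 92.4 CPM in wild-type. Both genes were lower in replicate 2 than in replicate 1 within each group, and the groups overlapped. Their log2 fold changes were -0.03 ± 0.07 (interval -0.18 to 0.12) for GTF2H1 and -0.06 ± 0.07 (interval -0.21 to 0.08) for GTF2H3.

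GTF2H5 (chromosome 6, 158168350 to 158199344) encodes the smallest subunit, which stabilises the complex and is mutated in a form of trichothiodystrophy. It had 19.2 and 18.1 CPM in knockout and 21.1 and 19.8 CPM in wild-type, with every knockout value below every wild-type value. Its log2 fold change of -0.13 ± 0.11 (interval -0.35 to 0.10) missed the threshold, with an adjusted p of 0.657 by edgeR's quasi-likelihood test.

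GTF2H4 (chromosome 6, 30908207 to 30914106) encodes the subunit that anchors XPB, and it was hardly counted in any library. The files list 1 and 0 counts in knockout and 1 and 4 counts in wild-type, under the filter on low counts. The genes on either side, chosen after their values were seen, were well counted: DDR1 had 533 and 496 counts in knockout and 473 and 537 in wild-type. VARS2, which starts 131 bases beyond the annotated end of GTF2H4, had 1482 and 1540 counts in knockout and 1239 and 1678 in wild-type. Whether the counting of neighbouring transcripts sets it was not tested. POLR2F, a polymerase subunit gene, was similarly low, with 2 and 2 counts in knockout and 2 and 6 in wild-type.

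In the kinase module CDK7 was the gene furthest from wild-type among the tested subunits other than GTF2H2. CDK7 (chromosome 5, 69234795 to 69277430) had 32.7 and 24.5 CPM in knockout, beside 33.5 and 35.0 CPM in wild-type. The 2 knockout libraries were far apart: replicate 1 was close to wild-type, and replicate 2 was below every other library. The log2 fold change was -0.26 ± 0.10 (SE, interval -0.47 to -0.05), with an adjusted p of 0.162 by edgeR's quasi-likelihood test. By label date the differences of log2(CPM + 0.5) were -0.04 in replicate 1 and -0.51 in replicate 2. Without knockout replicate 1 the log2 fold change became -0.48 (adjusted p = 0.00114 by edgeR), and without knockout replicate 2 it was -0.07 (adjusted p = 0.917 by edgeR). The annotated spans of CDK7 and CCDC125 overlap by 4392 bases, and without a stated strand setting it is not known how reads there were assigned.

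MNAT1 (chromosome 14, 60734761 to 60969965) had 29.7 and 27.5 CPM in knockout and 31.6 and 28.6 CPM in wild-type. The groups overlapped, and the log2 fold change was -0.07 ± 0.10 (interval -0.27 to 0.13). Cyclin H, the remaining subunit of the module, is encoded by CCNH, a gene outside the 10. CCNH had 40.6 and 37.1 CPM in knockout and 43.6 and 44.5 CPM in wild-type. Its values did not overlap between groups, but the log2 fold change of -0.18 ± 0.09 (interval -0.36 to -0.01) did not pass the threshold (adjusted p = 0.264 by edgeR's quasi-likelihood test). Most of the annotated span of CCNH overlaps that of RASA1.

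**Figure D3:**
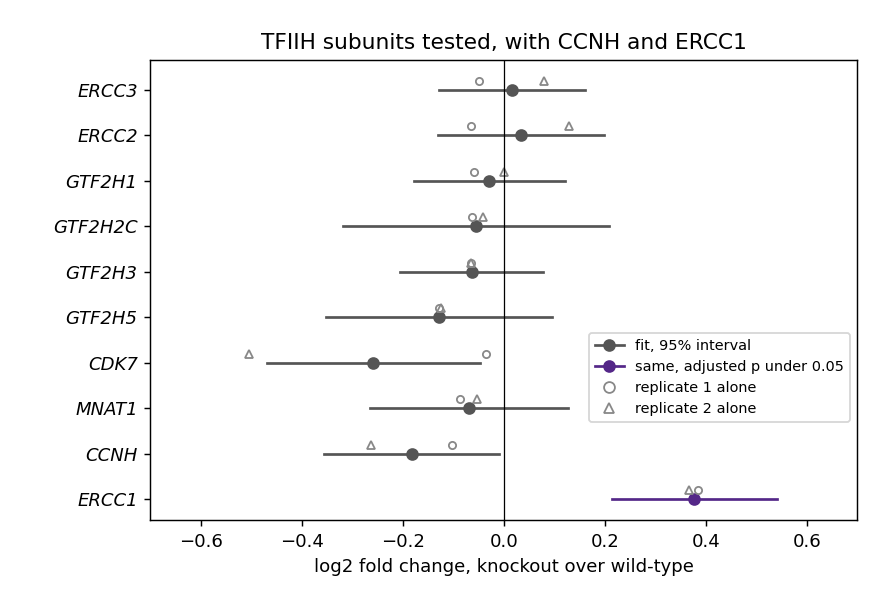
Log2 fold change of knockout over wild-type (x axis) for the 8 tested TFIIH genes other than GTF2H2, and for CCNH and ERCC1. Filled points are the fit with its 95% interval, and open circles and triangles are the differences of log2(CPM + 0.5) in replicate 1 and replicate 2. ERCC1 alone is past the threshold, and CDK7 has the widest gap between replicates, -0.04 and -0.51.

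The genes around GTF2H2 were examined because CDK7 and GTF2H2C lie in the same part of chromosome 5. RefSeq places 111 genes within 2 Mb of GTF2H2, of which 47 had a row in the files and 22 passed the filter on low counts, GTF2H2 among them. Of the other 21, 1 was called, SMN1, lower in knockout, against a background of 6.56% of all tested genes called and 3.50% called lower. Their median log2 fold change was -0.12, beside 0.0017 for all tested genes, and without SMN1 it was -0.10. Of the 21, 16 lay below 0 and 5 above, where 8057 of the 16233 genes tested lay below 0. Some of the 21 have overlapping spans, so their signs are not independent, and a shift of the region was not tested. The number called was 3 with the label date as a block (SMN1, MCCC2 and MAP1B), 2 without knockout replicate 1 (SMN1 and CDK7) and 2 without knockout replicate 2 (SMN1 and MAP1B).

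SMN1, which encodes the survival motor neuron protein, has its midpoint 122 kb from the GTF2H2 start on the downstream side. It had 92 and 67 counts in the knockout libraries and 232 and 223 in the wild-type libraries, a log2 fold change of -1.38 ± 0.18 (SE, adjusted p = 9.72e-08 by edgeR's quasi-likelihood test). All knockout counts were below all wild-type counts. The near copy SMN2, in the other arm of the duplication, had 54 and 52 counts in knockout and 40 and 68 in wild-type, and these groups overlapped. How reads that match both SMN1 and SMN2 were counted is not given in the sources used here. The split of reads between these copies was therefore not tested. NAIP, which lies between SMN1 and GTF2H2 and encodes an inhibitor of apoptosis, had 0 and 0 counts in knockout and 1 and 2 in wild-type, too few in either group for a fold change. SERF1A and SERF1B, further genes of the duplication, were listed at 0 counts in all 4 libraries. How reads that match both SERF1 copies were counted is not known either, so these 0 counts do not show absence of expression.

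On the upstream side of GTF2H2, no tested gene was called. The nearest were the pseudogene GUSBP9, with 24 and 21 counts in knockout and 24 and 24 in wild-type, and BDP1, which encodes a subunit of the polymerase III factor TFIIIB. BDP1 stood at 46.9 and 41.4 CPM in knockout and 51.9 and 46.2 CPM in wild-type, a log2 fold change of -0.15 ± 0.09 (interval -0.32 to 0.02). The next gene, MCCC2, encodes a subunit of a carboxylase of leucine breakdown. It had 39.3 and 38.3 CPM in knockout and 44.2 and 46.7 CPM in wild-type (-0.23 ± 0.09, adjusted p = 0.118 by edgeR). With the label date as a block MCCC2 passed the threshold (blocked adjusted p = 0.0440 by edgeR), as did the microtubule protein gene MAP1B (-0.14 ± 0.06, adjusted p = 0.217 without the block and blocked adjusted p = 0.0463). MAP1B also passed without knockout replicate 2 (adjusted p = 0.0478 by edgeR).

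Beyond the duplicated stretch on the CDK7 side, small differences were spread over several genes without a call. TAF9, which encodes a TFIID subunit, had 12.2 and 10.8 CPM in knockout and 15.5 and 13.5 CPM in wild-type (-0.33 ± 0.13, adjusted p = 0.158 by edgeR). Its span overlaps that of AK6. Whether exons are shared was not examined, and how reads in the overlap were assigned is not known. The tight junction gene OCLN had 3.74 and 2.82 CPM in knockout and 4.13 and 5.02 CPM in wild-type (-0.48 ± 0.22, adjusted p = 0.228 by edgeR). The cyclin gene CCNB1, at 491 and 468 CPM in knockout and 483 and 439 CPM in wild-type, had a log2 fold change of 0.06 ± 0.06. The others on that side, SLC30A5, CENPH, MRPS36, CCDC125, AK6 and RAD17, lay between -0.19 and 0.08 on the log2 scale. On the far upstream side MRPS27, PTCD2, TNPO1 and FCHO2 lay between -0.12 and 0.0039.

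**Figure D4:**
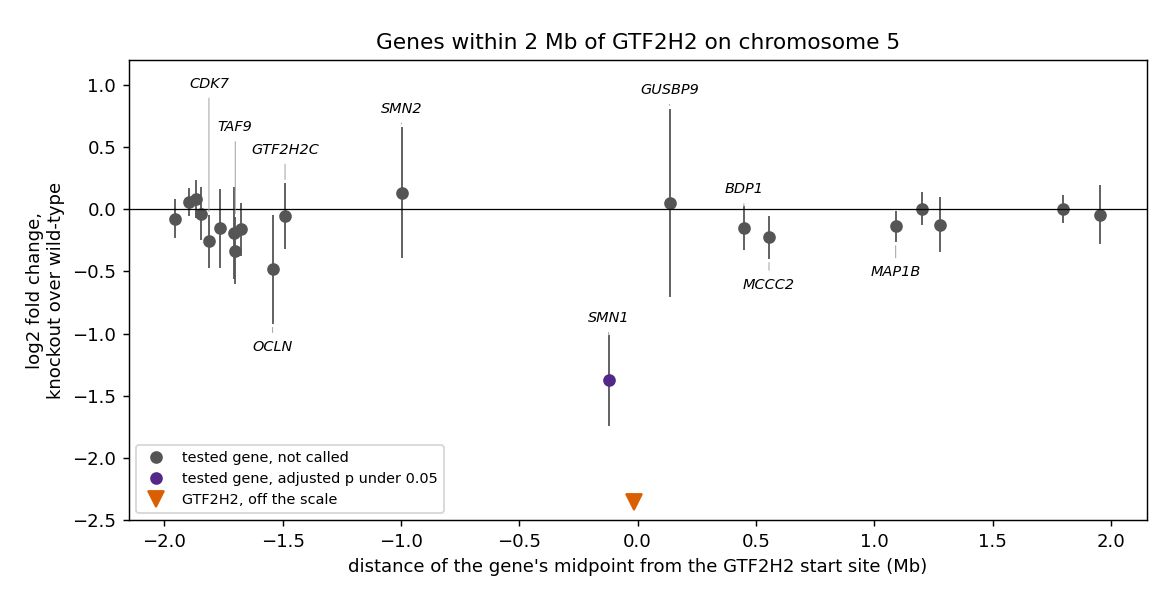
Log2 fold change of knockout over wild-type (y axis) with 95% intervals for the tested genes within 2 Mb of GTF2H2, by the distance of the gene's midpoint from the GTF2H2 start (x axis, Mb, towards the chromosome end on the right). SMN1 (-1.38) and GTF2H2, drawn as a triangle below the axis range, stand apart from the 20 other genes, which lie between -0.48 and 0.13.

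The genes whose levels over the 4 libraries were most like those of GTF2H2, by Euclidean distance of log2(CPM + 0.5), lay on other chromosomes. The nearest was SETBP1 on chromosome 18 (distance 0.40), which encodes a nuclear protein binding SET, with 0 and 0 counts in knockout and 104 and 151 in wild-type. EPHA6 on chromosome 3 (distance 0.47), an ephrin receptor gene, had 2 and 3 counts in knockout and 91 and 108 in wild-type. The progesterone receptor gene PGR on chromosome 11 (distance 0.58) had 2 and 2 counts in knockout and 80 and 90 in wild-type. TCEAL8 on chromosome X (distance 0.59) and the microfibril gene MFAP2 on chromosome 1 (distance 0.81) followed. Each of these had at most 5 counts in any knockout library. The likeness rests on 4 libraries and on a contrast for which GTF2H2 was chosen, and is a description.

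Genes that work with TFIIH in excision repair were close to wild-type, with 1 exception. Of 23 genes for damage recognition, incision and gap filling, 1 was called, ERCC1, higher in knockout (4.35%, against 6.56% of all tested genes). Their median log2 fold change was -0.02. ERCC1 encodes the partner of the XPF nuclease, which cuts the damaged strand that TFIIH has opened. It had 58.0 and 62.0 CPM in knockout, against 44.3 and 48.0 CPM in wild-type, and the groups did not overlap. The log2 fold change was 0.38 ± 0.08 (SE), with an adjusted p of 0.00103 by edgeR's quasi-likelihood test. DESeq2 called it as well (adjusted p = 0.00942), but the call was lost without wild-type replicate 1 (0.32, adjusted p = 0.0792 by edgeR). ERCC1 lies on chromosome 19 at 45407334 to 45451547, near ERCC2, and its span overlaps that of CD3EAP by 3404 bases.

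The other repair genes gave no call. They lay between -0.18 and 0.15 on the log2 scale, among them XPA (-0.18), which verifies the lesion beside TFIIH, XPC (0.08), which recruits TFIIH, and ERCC5 (-0.10), the nuclease on the other side of the lesion. The transcription-coupled factors ERCC6 (-0.15), ERCC8 (-0.06) and UVSSA (-0.0043) missed the threshold too.

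Partners in transcription gave no call in the fit of all 4 libraries without the label date as a block. Of the 16233 genes tested, 6.56% were called and 2711 had an unadjusted p under 0.05. The general factor, polymerase and kinase lists were not tested against this background. Of 22 genes for the other general factors, TFIIA, TFIIB, TFIID, TFIIE and TFIIF, 0 were called, with a median of -0.02 and 2 at an unadjusted p of 0.05. The smallest p-values were those of TAF9, given above, and of TAF13, another TFIID gene, which had 16.1 and 14.2 CPM in knockout and 18.7 and 18.3 CPM in wild-type (-0.28 ± 0.12, adjusted p = 0.179 by edgeR). GTF2E1 (0.05) and GTF2E2 (0.0070), whose products recruit TFIIH to the promoter, had small log2 fold changes.

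Of 11 RNA polymerase II subunit genes 10 were tested and 0 called, with a median of 0.01 and 1 at an unadjusted p of 0.05. That gene, POLR2L, had 132 and 140 CPM in knockout and 126 and 115 CPM in wild-type (0.18 ± 0.07, adjusted p = 0.123 by edgeR), and it passed the threshold with the label date as a block (blocked adjusted p = 0.0447 by edgeR) and without knockout replicate 1 (adjusted p = 0.0489 by edgeR). POLR2I followed, with a log2 fold change of 0.16 ± 0.10. POLR2A, which encodes the subunit with the tail that CDK7 phosphorylates, was chosen after its values were seen. It had 39.3 and 44.6 CPM in knockout and 39.6 and 59.9 CPM in wild-type, with wild-type replicate 2 above the other libraries (-0.25 ± 0.25, adjusted p = 0.758 by edgeR). Without wild-type replicate 1, POLR2A passed the threshold as lower in knockout (-0.52 ± 0.11, adjusted p = 0.000139 by edgeR).

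Of 13 genes for other kinases of the polymerase tail and their cyclins 0 were called, with a median of -0.02 and 2 at an unadjusted p of 0.05. CCNC, the cyclin of the Mediator kinase, had 100.5 and 93.1 CPM in knockout and 108 and 109 CPM in wild-type (-0.16 ± 0.07, adjusted p = 0.178 by edgeR). CCNK, the cyclin partner of CDK12 and CDK13, had 3.69 and 3.42 CPM in knockout and 4.42 and 5.22 CPM in wild-type (-0.44 ± 0.21, adjusted p = 0.257 by edgeR). The CTD kinase genes CDK9 (0.0066), CDK12 (-0.05) and CDK13 (-0.02) lay near 0. DESeq2 also called 0 genes among the other general factors, the polymerase subunits and these kinases. The span of CCNC overlaps that of TSTD3, and the span of CCNK overlaps those of SETD3 and CCDC85C. Whether exons are shared was not examined, and how reads there were assigned is not known.

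**Figure D5:**
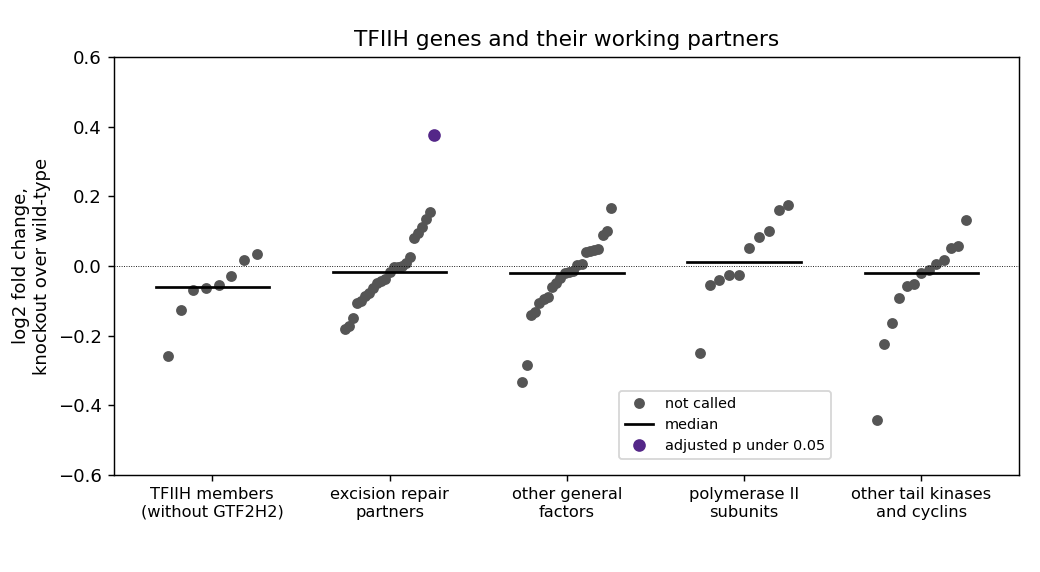
Log2 fold change of knockout over wild-type (y axis) for each tested gene of the TFIIH list without GTF2H2 and of 4 lists of working partners (x axis), sorted within a list. Lines are medians. ERCC1 (0.38) is the single called gene, and the list medians lie between -0.06 and 0.01.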

How the data were processed

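RNA-seq counts of 4 HAP1 libraries were used, 2 BCDIN3D knockout and 2 wild-type. The authors deposited raw read counts per gene symbol, 1 file per library. Per the submitters' processing notes, the hg38 build and the tools STAR, featureCounts, Subread, SAMtools, cutadapt and FastQC were involved, with no roles stated. The annotation, the strand setting and the handling of multi-mapping reads were not given in the sources used here. The 4 small RNA files hold no TFIIH gene and were not used.

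The deposited counts were fitted with edgeR 4.0.16 under R 4.3.3. filterByExpr (minimum count 10) kept 16233 genes. TMM scaling and the robust quasi-likelihood F test compared knockout with wild-type, with Benjamini-Hochberg adjustment over all tested genes and a threshold of 0.05. Unless another tool is named, adjusted p-values come from this fit. Standard errors are the log2 fold change divided by the square root of F, and 95% intervals use the fit's degrees of freedom. The test was checked on simulated data. Replicates differed by more than sampling noise (chi-square per degree of freedom 4.37 in knockout and 3.62 in wild-type).

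Alternatives were RLE size factors, library size alone, no filter on low counts, DESeq2 1.42.0, the label date as a block, each library left out, and the copies of GTF2H2 summed. The label dates pair the libraries of the groups. Across genes, the difference between replicates correlated at 0.12 between knockout and wild-type.

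Members and lists were chosen with earlier results of these data known. Named are the 10 genes, CCNH, other GTF2H symbols and BCDIN3D, up to 3 called genes each way per partner list or the 2 of smallest p, tested genes within 2 Mb of GTF2H2, and the 5 genes nearest to it. DDR1, VARS2, POLR2A, POLR2F, NAIP and the further repair, transcription factor and kinase genes given only by a log2 fold change were added after their values were seen. Positions and start-site windows came from RefSeq tables of GRCh38.p14, joined on gene symbols, older ones included where unique. All 10 genes matched.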

Additional observations from a re-analysis of the deposited data

How the results depend on the processing

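Across the 8 tested TFIIH genes other than GTF2H2, 78 of 79 values under the alternatives kept their side of the threshold. The exception was CDK7 without knockout replicate 1, which made the number of called TFIIH genes 1 instead of 0. Signs close to 0 could turn, as for ERCC3 with library size alone, without a call. Among the 40 tested genes taken by the rule 392 of 399 values kept their call, 6 gained one and 1, ERCC1, lost it. The fold of GTF2H2 was 205 with library size alone and ranged from 104 to 215 when libraries were left out. Without knockout replicate 1 the remaining knockout library had 0 counts and gave no ratio. The sum of the copies ranged from -0.56 to -0.51 in log2 fold change.

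The number of genes called over the whole table, 1065 (497 higher and 568 lower), was 586 with DESeq2 (255 higher, 331 lower). In the replicate block fit on label dates 767 were higher, 1551 in all. Without single libraries the total ranged from 660 to 1389, with 240 to 684 higher and 340 to 705 lower. Such a fit leaves 1 library in a group, which is assumed to vary like the other group. The cause of these moves was not tested. With library size alone 36.7% of calls were higher, against 46.7%. The block changed the calls of MCCC2, MAP1B and POLR2L among the named genes and of no TFIIH gene. GTF2H2B, NAIP and GTF2H4 entered only the edgeR fit without a filter on low counts, which called none of them (adjusted p = 0.136 for GTF2H2B and 0.819 for each of the other two).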
